A study of Mus musculus with 6 samples.

Results

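The kinetochore is the protein assembly that ties each chromosome to spindle microtubules, and its RNAs were examined here as 38 genes of its structure and of the centromere beneath it. The members were taken from the authors' comparison table by gene symbol, and all 38 are among its 15982 genes. The cells were primary mouse bone marrow-derived macrophages (BMMs), bulk cultures, from control mice (Ctrl) and from mice with a myeloid-specific deletion of the mitotic kinase Bub1 (Bub1 cKO). Both genotypes were kept for 3 days in M-CSF (20 ng/ml) and then for 2 days in M-CSF (20 ng/ml) with RANKL (50 ng/ml), which starts osteoclast formation. The labels list 3 libraries per genotype, made with a QuantSeq 3' kit. The sources used here state neither mouse strain, sex and age nor the Cre driver, the exons removed or whether the libraries came from separate animals. The p-values therefore reflect library-to-library spread, part or all of which may be technical.

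At the base of the kinetochore, nucleosomes with the histone variant CENP-A mark the centromere. A constitutive inner network of CENP proteins sits on them and recruits the Mis12 and Ndc80 complexes, which reach the microtubule. The Ska complex holds on to the microtubule end, and a fibrous corona assembles at unattached kinetochores. Bub1 is recruited to this outer layer in the spindle checkpoint, and its phosphorylation of histone H2A helps to place shugoshin at the centromere. Many of these genes are expressed mainly in dividing cells, whereas mature osteoclasts do not divide.

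The authors' table gives 1 value per genotype, so values of single libraries are not shown. Levels are printed as TPM (transcript abundance scaled to a common total and to transcript length), a reading of columns that name no unit. Levels of different genes are compared on that scale alone. With a 3' kit, scaling to transcript length may distort comparisons between genes. Each gene has 2 measures of change. The deposited log2 change is log2 of (Bub1 cKO + 1)/(Ctrl + 1) from the printed levels. The test's own log2 change is the deposited statistic times its standard error, with that standard error, and its 95% interval is computed here from that error with a normal approximation. The direction of a gene is the sign of the statistic.

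No member passed an adjusted p under 0.05 in either direction in the authors' deposited table. The background over all genes was 0.0688% called lower and 0.113% called higher. At an unadjusted p under 0.05, 2 of 38 members were lower, Cenpu and Cenpl, beside 2.46% of all genes. The count of higher members at that p was 0, beside 2.35% of all genes. The statistics leaned to 1 side all the same: 29 of 38 members had a negative statistic, beside 50.1% of all genes. The 12 members with the smallest p (unadjusted p up to 0.231 in the authors' deposited table) were all lower in Bub1 cKO. The smallest unadjusted p of any higher member was 0.303 in the authors' deposited table, so members below that value are lower by construction. Of the 4029 genes of the whole table below it, 50% had a negative statistic, given as a description only. The members' median deposited log2 change was -0.23, against -0.01 over all genes, and the median of the test's own change was -0.25. In bulk cultures, fewer dividing cells and less RNA per cell cannot be told apart. The targeted gene Bub1 was at 6.73 and 5.32 TPM in Ctrl and Bub1 cKO (adjusted p = 0.985 in the authors' deposited table). Its 3' tags may lie outside the deleted part, so its level is no check of the genotype.

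**Figure D1:**
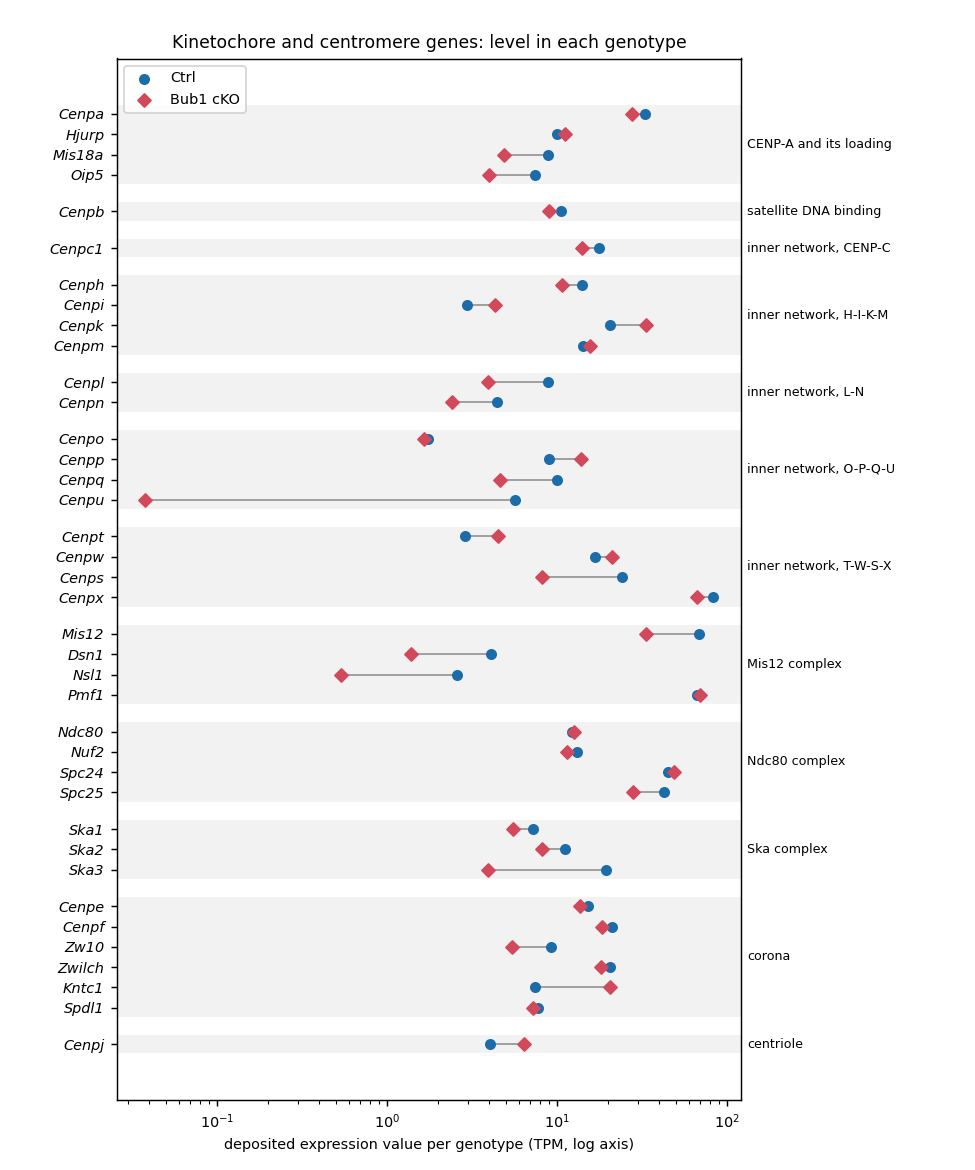
Level of each of the 38 genes in Ctrl (circles) and Bub1 cKO (diamonds) in TPM on a log axis, 1 value per genotype as deposited, grouped by complex. In 26 of 38 genes the Bub1 cKO value is the lower, beside 50.7% of all genes, while 29 of 38 are lower by the sign of the statistic. The widest gap is that of Cenpu, at 5.69 and 0.038 TPM.

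Members were expressed at moderate levels. Over the 38 genes the Ctrl values ran from 1.75 TPM for Cenpo to 82.6 TPM for Cenpx, with a median of 10.9 TPM. In Bub1 cKO the range was 0.038 to 69.9 TPM, with a median of 9.86 TPM. Every member had a mean of at least 1 TPM and 31 had at least 5 TPM. The summed level was 685 TPM in Ctrl against 577 TPM in Bub1 cKO. Spearman's rho between the Ctrl level and the longest annotated transcript was -0.33 over 38 genes, given as a description.

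The lowest p-values belonged to inner network genes of the centromere. Cenpu encodes CENP-U, a subunit of the CENP-O group that binds the kinase Plk1. Its level was 5.69 TPM in Ctrl against 0.038 TPM in Bub1 cKO (unadjusted p = 0.008, adjusted p = 0.637 in the authors' deposited table). The deposited log2 change of Cenpu was -2.69 and the test's own -4.65, with a standard error of 1.74, the largest among the members. Its interval, from -8.05 to -1.24, leaves the size of the difference poorly determined. Cenpl encodes CENP-L, the partner of the CENP-A reader CENP-N. Cenpl was at 8.82 and 3.92 TPM (unadjusted p = 0.042, adjusted p = 0.985 in the authors' deposited table). Its test's own change was -0.97, with a standard error of 0.47, close to the deposited change of -0.999. The interval ran from -1.90 to -0.03 and so ended close to 0. Cenpn itself was at 4.48 and 2.40 TPM, with an interval from -2.41 to 0.40. Both genes of this pair were lower by the sign of the statistic, and the interval of Cenpl alone lay below 0.

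The promoters of these 2 genes of lowest p are shown because genes of late cell cycle phases often carry a cell cycle homology region (CHR, TTTGAA) and CCAAT boxes near their start. The sequences are RefSeq's on GRCm38.p6, plus strand, from 250 bases before to 50 after the start, with TTTGAA and CCAAT in either orientation in capitals.
Cenpu, chr8:46551819-46552118: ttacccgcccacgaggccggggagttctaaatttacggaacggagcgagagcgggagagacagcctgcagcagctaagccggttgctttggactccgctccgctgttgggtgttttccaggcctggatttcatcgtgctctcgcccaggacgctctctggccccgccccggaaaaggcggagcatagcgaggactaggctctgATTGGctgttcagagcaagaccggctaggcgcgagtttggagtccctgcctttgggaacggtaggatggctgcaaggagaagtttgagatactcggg
Cenpl, chr1:161070517-161070816: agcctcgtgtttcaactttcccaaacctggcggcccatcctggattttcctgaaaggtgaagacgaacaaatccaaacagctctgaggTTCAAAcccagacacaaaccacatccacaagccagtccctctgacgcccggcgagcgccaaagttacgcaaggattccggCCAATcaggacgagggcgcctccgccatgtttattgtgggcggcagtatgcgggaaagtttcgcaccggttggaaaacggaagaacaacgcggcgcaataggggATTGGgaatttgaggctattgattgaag
The Cenpl window holds 1 CHR match and 2 CCAAT matches, and the Cenpu window 1 CCAAT match and 0 CHR matches. A gene was counted if any of its RefSeq promoters held the motif. Of 34 members with a promoter in the RefSeq table, 14 held the CHR letters (41.2%), beside 20.2% of 27025 genes. Those 27025 are all genes with a RefSeq promoter, not the 15982 genes compared here. CCAAT was found in 22 of 34 (64.7%), beside 41.1% of the RefSeq genes. Both motifs together occurred in 11 members (32.4%), beside 7.97% of the RefSeq genes. Neighbouring motifs may share bases, and a match is a run of letters and not a measured binding site. The 11 members with both motifs included Cenpa, Cenpf, Spc25, Oip5 and Kntc1. Of these 11, 10 had a negative statistic and their median deposited log2 change was -0.19. Of the 23 other members with a promoter, 16 had a negative statistic, with a median of -0.29. Nsl1, Ska1, Spc24 and Zwilch were not matched.

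CENP-A and its loading factors were all lower by the sign of the statistic, by unequal amounts. Cenpa, the centromeric histone H3 variant, was at 33.1 and 27.8 TPM, in Ctrl and Bub1 cKO in that order as for all pairs of values that follow. The interval of Cenpa ran from -0.89 to 0.46. Hjurp, the chaperone that deposits CENP-A, was at 10.0 and 11.2 TPM with a test's own change of -0.13. The genes of the Mis18 complex, which licenses the centromere for new CENP-A, had larger estimates. Mis18a was at 8.91 and 4.87 TPM, and its test's own change was -0.88 with a standard error of 0.64 (unadjusted p = 0.165 in the authors' deposited table). Oip5, which encodes Mis18-beta, was at 7.46 and 3.99 TPM, with a test's own change of -0.87 and a standard error of 0.66 (unadjusted p = 0.185 in the authors' deposited table). All 4 intervals include 0. Cenpb, whose product binds a motif in satellite DNA, was at 10.6 and 8.95 TPM (test's own change -0.24).

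The 15 inner network genes among the members had statistics of both signs. By that sign 9 were lower and 6 higher in Bub1 cKO, with a median deposited log2 change of -0.29. Cenpc1, the scaffold that links CENP-A nucleosomes to the Mis12 complex, was at 17.6 and 14.2 TPM (test's own change -0.26). Within the group of CENP-H, -I, -K and -M, Cenph was lower at 14.1 and 10.8 TPM, while Cenpi was higher at 2.96 and 4.35 TPM. Cenpm was at 14.3 and 15.7 TPM. All 3 had intervals that include 0. Among the partners of CENP-U, Cenpq was at 10.1 and 4.63 TPM, with a test's own change of -0.85 and a standard error of 0.62 (unadjusted p = 0.175 in the authors' deposited table). Cenpp went the other way, at 8.98 and 13.9 TPM, and had the smallest p of any higher member (unadjusted p = 0.303 in the authors' deposited table). Cenpo was the member with the lowest Ctrl level, at 1.75 and 1.65 TPM. The 4 members of this subcomplex split evenly by the sign of the statistic. Cenpo counts as higher only by a statistic of 0.25 in the authors' deposited table, against its slightly lower level. Itgb3bp, which encodes the remaining subunit CENP-R, was counted with the other kinetochore genes and not with the members. It was at 10.3 and 4.90 TPM, with a statistic of -1.32 in the authors' deposited table. The histone-fold proteins CENP-T, -W, -S and -X form the network's second DNA-binding arm. Cenpt stood at 2.87 and 4.54 TPM and Cenpw at 16.8 and 21.0 TPM. Cenpx, the gene of highest level, was at 82.6 and 67.2 TPM, with an interval from -0.95 to 0.38. Cenpx and Cenps also encode subunits of the Fanconi anaemia core machinery, so their RNA is not specific to the kinetochore.

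The Mis12 complex, the bridge from the inner network to Ndc80, had a negative statistic in all 4 genes. Its median deposited log2 change was -1.06. Mis12 was at 69.0 and 33.6 TPM, a deposited log2 change of -1.02, while its test's own change was -0.52 with a standard error of 0.42 (unadjusted p = 0.224 in the authors' deposited table). Dsn1, the subunit that Aurora B phosphorylates, was at 4.09 and 1.38 TPM, with a test's own change of -1.09 (unadjusted p = 0.229 in the authors' deposited table). Nsl1 was the member of lowest mean level, at 2.59 and 0.540 TPM. Their intervals all include 0, and those of Dsn1 and Nsl1 are wide, from -2.86 to 0.69 and from -2.91 to 0.75. Pmf1, the remaining subunit and the member with the second highest mean, was at 66.7 and 69.9 TPM, and its interval ran from -0.72 to 0.55. The printed levels of the 4 subunits thus spanned more than an order of magnitude in both genotypes. Read as TPM from 3' libraries, they do not measure the relative amounts of the subunits.

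The Ndc80 complex, the main microtubule coupler, had a median test's own change of 0.04, beside -0.80 in the Mis12 complex. Ndc80 was at 12.4 and 12.6 TPM, Nuf2 at 13.2 and 11.5 TPM and Spc24 at 45.0 and 48.6 TPM. For Ndc80 the interval ran from -0.66 to 0.74, and for Spc24 from -0.50 to 0.74, so changes beyond 1 log2 unit either way lay outside. Spc25 was at 42.9 and 28.1 TPM, with a test's own change of -0.52 and a standard error of 0.30 (unadjusted p = 0.088 in the authors' deposited table). Spc25 was the only subunit of the 4 with a negative statistic, and its interval ran from -1.12 to 0.08. The difference between Spc25 and its partner Spc24 was not tested.

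The 3 Ska genes, which load on Ndc80 at microtubule ends, were all lower by the statistic. Ska3, the subunit phosphorylated by Cdk1, had the widest gap among them, at 19.4 and 3.94 TPM. Its deposited log2 change was -2.04, while the test's own was -1.25 with a standard error of 0.72 (unadjusted p = 0.082 in the authors' deposited table). For Ska3 the interval ran from -2.66 to 0.16. Ska1 was at 7.24 and 5.55 TPM and Ska2 at 11.2 and 8.19 TPM, with intervals that include 0.

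In the corona all 6 genes had a negative statistic, mostly with small estimates. Their summed level was not lower, at 81.5 and 83.7 TPM. Kntc1 rose in level, at 7.47 and 20.5 TPM, against its statistic of -0.23 in the authors' deposited table. Cenpe, the kinesin that carries chromosomes to the spindle equator, was at 15.4 and 13.7 TPM. Cenpf, a large coiled-coil protein, was at 21.2 and 18.5 TPM. These were the members measured with the smallest errors, 0.19 and 0.20 in the authors' deposited table. Their intervals ran from -0.56 to 0.19 for Cenpe and from -0.63 to 0.15 for Cenpf. Zw10, Zwilch and Kntc1 (which encodes ROD) form the RZZ complex that brings dynein to kinetochores through Spindly, the product of Spdl1. Zw10 was at 9.30 and 5.42 TPM, with an unadjusted p of 0.220 by the authors' deposited table, Zwilch at 20.4 and 18.2 TPM, and Spdl1 at 7.76 and 7.28 TPM. Cenpj, which carries a centromere protein name but encodes a centriole assembly factor (CPAP), had a statistic near 0 (-0.05 in the authors' deposited table).

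**Figure D2:**
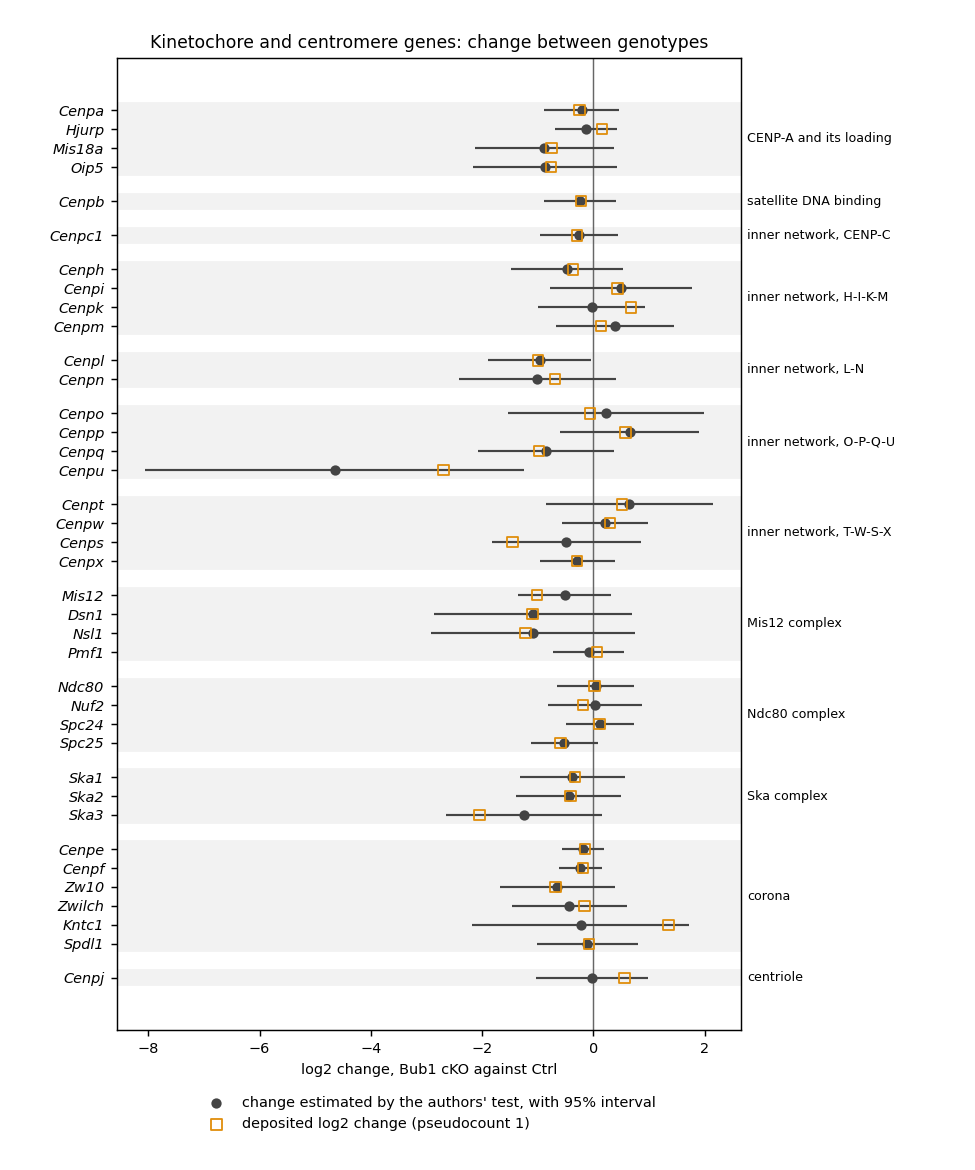
Change of each gene between Bub1 cKO and Ctrl on the log2 scale. Filled points with bars are the change estimated by the authors' test and its 95% interval, and open squares are the deposited log2 change; the interval lies below 0 in Cenpu and Cenpl, and the squares of Cenpu, Ska3, Mis12, Cenps, Kntc1, Cenpk and Cenpj lie more than 1 standard error from their points.

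The precision of the table bounds what these values exclude. A fall by 1 log2 unit or more lay outside the interval in 17 of 38 members, beside 51.9% of the 8718 genes whose mean lies within the members' range. A rise of that size lay outside it in 32 of 38 members, beside 53.2%. The median standard error was 0.50 for the members and 0.50 for those 8718 genes.

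The printed levels and the authors' test disagreed for several members. The deposited log2 change was under -1 in 6 members (Cenpu, Ska3, Mis12, Dsn1, Nsl1 and Cenps), 15.8% of the list beside 6.69% of genes in the same range. It was over 1 in 1 member, Kntc1, beside 6.42%. In 7 members, Cenpu, Ska3, Mis12, Cenps, Kntc1, Cenpk and Cenpj, the deposited change lay more than 1 standard error from the test's own, beside 11.8% of genes in that range. The signs differed in 7 members (18.4%), beside 12.9%. Kntc1 was at 7.47 and 20.5 TPM, a deposited log2 change of 1.35, yet its test's own change was -0.23 with a standard error of 0.99 from the authors' deposited table. Cenpk, whose product is a subunit of the CENP-H group, was at 20.6 and 33.5 TPM (deposited log2 change 0.68) with a test's own change of -0.03. Cenpj was at 4.06 and 6.44 TPM (0.56) with a test's own change of -0.03. The reverse case is Cenps, at 24.1 and 8.15 TPM: the deposited log2 change was -1.46 and the test's own -0.48. For these genes the levels alone would give another picture than the test, and whether both rest on 1 quantification is not stated in the sources used here.

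The genes around the kinetochore, from lists of related roles, were read beside the members, as 4 lists. Over all genes 50.1% had a negative statistic, and 2.46% were lower and 2.35% higher at an unadjusted p under 0.05. Of 16 spindle checkpoint and passenger genes 13 had a negative statistic, with 2 lower and 0 higher at that p. The 13 include the targeted gene Bub1, with a statistic of -0.77 in the authors' deposited table. Cdc20, the activator of the anaphase-promoting complex, was at 34.1 and 21.0 TPM, the kinase gene Plk1 at 29.4 and 20.2 TPM, and Mad1l1, the anchor of Mad2, at 8.51 and 16.2 TPM. Of 20 G2/M genes 16 had a negative statistic, with 4 lower and 0 higher at that p. Cdc25b was at 13.0 and 5.77 TPM, Kif23 at 120 and 72.0 TPM and Cdk1 at 115 and 85.1 TPM. Other kinetochore genes divided more evenly, with 13 negative of 24 and 0 past that p in either direction. In this list Spag5 was at 45.8 and 40.9 TPM, Ndel1 at 18.4 and 12.2 TPM, and Knl1, the scaffold that binds Bub1, at 8.52 and 10.8 TPM with a statistic of -1.51 in the authors' deposited table. S-phase genes divided evenly too, with 12 negative of 22 and 2 lower and 1 higher at that p. The replication helicase genes Mcm7 and Mcm6 were at 79.2 and 57.4 TPM and at 23.6 and 33.3 TPM, and Gins2 at 3.88 and 1.29 TPM. No gene of the 4 lists passed an adjusted p under 0.05 in the authors' deposited table, and differences between lists were not tested.

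**Figure D3:**
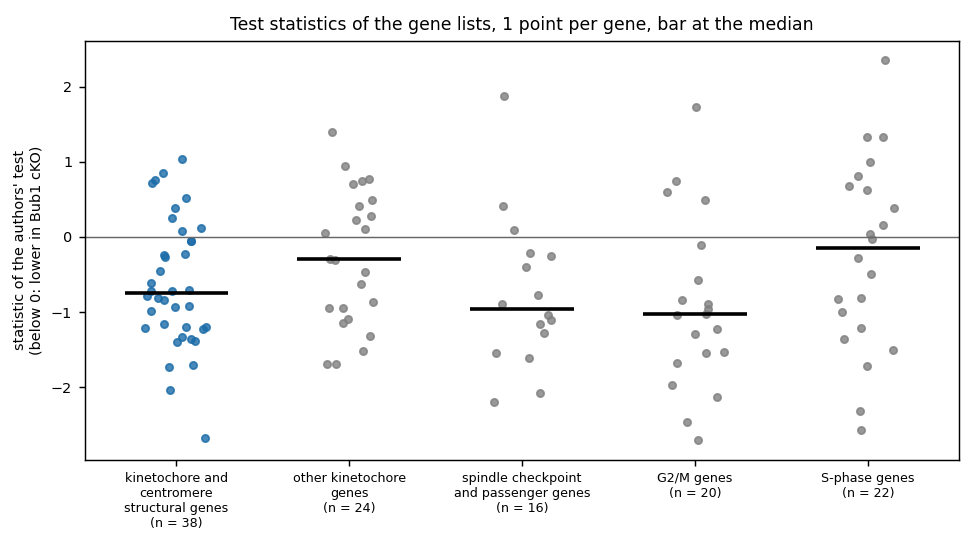
Statistic of the authors' test for each gene of 5 lists, 1 point per gene with a bar at the median, where values below 0 mean lower in Bub1 cKO. The median is -0.75 for the 38 structural genes, -0.30 for other kinetochore genes, -0.97 for checkpoint and passenger genes, -1.03 for G2/M genes and -0.15 for S-phase genes.

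Position and neighbours were read from GENCODE M21 (GRCm38) by gene ID. Spc25, Oip5, Cenpb and Dsn1 lie on chromosome 2, which carries Bub1 (127801122 to 127831865). Oip5 spans 119609512 to 119618469 and Cenpb 131175182 to 131180067. All 4 had a negative statistic with a median deposited log2 change of -0.68, while of 1310 chromosome 2 genes 651 did, with a median of -0.01. Without these 4 members, 25 of 34 had a negative statistic. Exons of 11 members overlap a gene on the opposite strand, among them Cenpu with Primpol and Ska3 with Sap18, and those of Cenpb overlap Spef1 on the same strand. Whether the authors' counting used strand is not stated in the sources used here, so reads of these pairs may be shared.

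Markers of the cell types in the culture differed between the genotypes beside these values. Of 8 macrophage markers 6 had a negative statistic, and their summed level was 2621 TPM in Ctrl against 1234 TPM in Bub1 cKO. Most of that gap is Lyz2, the lysozyme gene, at 2141 and 762 TPM (adjusted p = 0.00033 in the authors' deposited table). The Cre driver is not stated, so whether the Lyz2 gene itself was altered in these mice is unknown. The other 7 macrophage markers summed to 480 and 472 TPM, with Cd68 higher in Bub1 cKO at 260.1 and 306 TPM. Of 9 osteoclast markers 7 had a positive statistic, with sums of 1979 and 2286 TPM. All 6 erythroid markers in the table (sums 19.6 and 358 TPM, Alas2 and Slc4a1 at 0 in Ctrl) and all 9 neutrophil markers (95.7 and 232 TPM, Elane, Camp and Retnlg at 0 in Ctrl) had a positive statistic. Of these, Hbb-bs, Hbb-bt and Cxcr2 passed an adjusted p under 0.05 (0.00017, 0.025 and 0.036 in the authors' deposited table). The level of the neutrophil marker Ltf was lower in Bub1 cKO, at 12.3 and 6.74 TPM, against its positive statistic of 0.22 in the authors' deposited table. The B cell, T cell and stromal marker lists each summed to at most 2.68 TPM in either genotype. The part of these markers in the members' values was not tested.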

How the data were processed

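RNA of 6 libraries was compared in 1 deposited table, which per the file headers comes from the RaNA-seq service. No source used here names the aligner or quantifier, the build, the annotation or the kind of test. The authors' deposited expression columns hold 1 value per genotype and were read as TPM, since they sum to 999891 (Ctrl) and 999954 (Bub1 cKO). CPM would sum alike. Recomputing log2 of (Bub1 cKO + 1)/(Ctrl + 1) from those columns gave the deposited log2 change in all 15982 genes, with a tolerance of 0.002. The deposited standard error and statistic were taken as scores from the authors' test, and the deposited p-value was used as given, adjusted by the authors over all genes. Library depth is unknown. The planned model per library was replaced by the authors' test, because the table has no values per library.

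Full statistics were given for the 12 members of smallest p, the 4 of highest mean, and those whose deposited change (over 0.5) and statistic differ in sign. Up to 3 genes per other list were named by smallest p, and Itgb3bp besides as a subunit of the CENP-O group. Members and lists were chosen with earlier results of these data known. Alternatives covered pseudocounts of 0.1 and 5, level filters of 1 and 5 TPM, renewed Benjamini-Hochberg adjustment, the test's own change, and lists without Cenpj. Of the table's IDs, 14614 matched GENCODE M21 with version and 15902 without. Python 3.11.15, pandas 2.3.3 and scipy 1.17.1 were used. The code of the adjustment and interval was tested on simulated normal statistics, which cannot show whether a normal interval suits the authors' test.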

Additional observations from a re-analysis of the deposited data

How the results depend on the processing

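No paired analysis was possible because the table has no values per library, and for the same reason no library could be left out and no count model run. The count of members past the adjusted p threshold was 0 under 4 alternatives (p adjusted again over all genes, over genes of at least 1 or 5 TPM, and a threshold of 0.1). The count of lower members at an unadjusted p under 0.05 was 1 in place of 2 when members under 5 TPM, Cenpu among them, were left out. Members with a negative statistic numbered 22 to 29 and the median log2 change lay between -0.25 and -0.19 in the settings tried. Of these, leaving out chromosome 2 members (25 negative, median -0.19) or members over 1 standard error apart (22 of 31 negative) was chosen after seeing the data. With the test's own change in place of the deposited one, 4 of 18 named members changed sign: Kntc1 (-0.23), Pmf1 (-0.0848), Cenpk (-0.0275) and Cenpj (-0.0252). The cause was not tested. Cenpu depended most on the pseudocount, at -5.39 with 0.1 and -1.09 with 5. With a median standard error near 0.5, changes well under 1 log2 unit could not reach an unadjusted p under 0.05 in most members. The adjusted threshold asked for more. The osteoclast marker Nfatc1 missed it with a statistic of 3.67, and the neutrophil marker Cxcr2 passed with 4.03. At that median error a change of 1 log2 unit would fall short of it. The count of 0 therefore does not by itself exclude such a change in most members.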
